A study of Rattus norvegicus with 65 samples.

Results

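The TCA cycle enzymes described here are the enzymes of the mitochondrial matrix that carry out the reactions of the citric acid cycle, without succinate dehydrogenase. Members were chosen by their symbol and known function, by a rule that used no measured value but with earlier results of these data known: Cs, Idh2, Idh3a, Idh3b, Idh3g, Ogdh, Suclg1, Fh and Mdh2. Of these 9 genes, 8 were found among the 14554 genes of the count table, and Ogdh was not analysed here. Counts of the 8 ran from 1557 to 21276 per library.

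Heart muscle cells taken from newborn rats (primary neonatal cardiomyocytes) were kept in culture, deprived of serum overnight and then exposed for 6 or for 24 hours to 10 mM 5-fluorouracil (5FU, an antimetabolite of cancer therapy), 2.5 mM acetaminophen (Ace, an analgesic) or 1.25 μM doxorubicin (Dox, an anthracycline that binds DNA and topoisomerase II). Each drug had a solvent control, DMSO1 (1% DMSO) for 5FU and DMSO2 (0.25% DMSO) for Ace and Dox. There were 6 libraries each of 5FU, Ace and DMSO1 and 7 each of Dox and DMSO2 at 6 hours, and 6 each of 5FU and DMSO1 and 7 each of Ace, Dox and DMSO2 at 24 hours. Before plating, cells of several litters were combined, and replicate libraries are separate wells of that mixture, so that p-values here reflect the variation from well to well rather than from animal to animal. The strain of the rats is not given in the sources used here.

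The cycle begins when citrate synthase (Cs) joins acetyl-CoA to oxaloacetate. Isocitrate is then oxidised by the NAD-dependent isocitrate dehydrogenase, a complex of the subunits encoded by Idh3a, Idh3b and Idh3g, while the separate enzyme encoded by Idh2 uses NADP. Suclg1 encodes the alpha subunit of succinyl-CoA synthetase, Fh encodes fumarate hydratase, which turns fumarate into malate, and Mdh2 encodes the mitochondrial malate dehydrogenase, which regenerates oxaloacetate. The NADH made in these steps feeds the respiratory chain, which supplies most of the ATP that beating heart muscle uses.

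Promoter sequences were read from the RefSeq table of the rat assembly GRCr8 for 7 of the 8 members; Idh3a had no entry. The 250 bases before the start site given in that table are printed for 5 members that moved apart after 24 hours of Dox: Idh2 and Idh3b, whose transcripts fell, Idh3g, whose change did not pass the test, and Fh and Mdh2, whose transcripts rose. The start site of Idh3b in that table lies inside the annotated span of the gene (chromosome 3, 137934971 to 137940275). Its window therefore lies wholly within the gene, while the windows of the others end next to their own genes. Capitals mark matches on either strand to 5 motifs that were searched: the NRF1 core TGCGCA, the ERR site AAGGTCA, the E-box CACGTG, the GC box GGGCGG and the YY1 site AAGATGG.
Idh2 (chr1:143467249-143467498, minus strand): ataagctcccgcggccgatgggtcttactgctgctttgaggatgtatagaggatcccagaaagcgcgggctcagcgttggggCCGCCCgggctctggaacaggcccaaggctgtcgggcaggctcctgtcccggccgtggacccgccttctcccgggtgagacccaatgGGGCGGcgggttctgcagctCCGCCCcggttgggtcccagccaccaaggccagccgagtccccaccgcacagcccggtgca
Idh3b (chr3:137939991-137940240, minus strand): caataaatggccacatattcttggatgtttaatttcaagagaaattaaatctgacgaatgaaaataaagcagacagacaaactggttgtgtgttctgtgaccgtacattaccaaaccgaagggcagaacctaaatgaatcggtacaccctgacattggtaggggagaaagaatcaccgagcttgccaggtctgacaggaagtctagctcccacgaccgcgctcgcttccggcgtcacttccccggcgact
Idh3g (chrX:156675483-156675732, minus strand): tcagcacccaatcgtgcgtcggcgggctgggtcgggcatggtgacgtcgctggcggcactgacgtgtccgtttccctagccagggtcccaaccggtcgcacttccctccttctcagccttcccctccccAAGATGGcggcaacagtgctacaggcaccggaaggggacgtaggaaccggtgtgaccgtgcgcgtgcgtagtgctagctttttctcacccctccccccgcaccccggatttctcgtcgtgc
Fh (chr13:90082451-90082700, minus strand): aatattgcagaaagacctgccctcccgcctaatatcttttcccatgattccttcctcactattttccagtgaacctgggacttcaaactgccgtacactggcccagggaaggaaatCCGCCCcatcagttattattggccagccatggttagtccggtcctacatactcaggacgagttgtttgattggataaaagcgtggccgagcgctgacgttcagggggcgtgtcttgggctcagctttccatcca
Mdh2 (chr12:26543842-26544091, minus strand): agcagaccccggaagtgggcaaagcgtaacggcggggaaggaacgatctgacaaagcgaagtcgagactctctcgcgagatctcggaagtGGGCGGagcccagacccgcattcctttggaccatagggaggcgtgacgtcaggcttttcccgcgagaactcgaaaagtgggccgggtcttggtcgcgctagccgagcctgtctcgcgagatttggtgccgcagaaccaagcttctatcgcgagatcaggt

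The GC box was present upstream of 4 of the 7 members, namely Cs, Idh2, Fh and Mdh2, and in 30.5% of the 33469 promoters of the same length. The YY1 site was present upstream of Cs and Idh3g and in 4.62% of all promoters. The NRF1 core, the ERR site and the E-box, present in 6.14%, 3.99% and 5.59% of all promoters, had no match in these windows for any of the 7 members. No 2 matches overlapped. GC boxes stood upstream of members that fell (Cs, Idh2) and of members that rose (Fh, Mdh2), and the part of any motif in the direction of change was not tested. The windows of Idh3b and Suclg1, both of which fell, held none of the 5 motifs. The windows also differed in base composition, from 47.2% G and C for Idh3b to 68.8% for Idh2, beside a median of 51.2% over all promoters.

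Library totals ran from 14332827 to 25738297 counts, and levels are given as CPM, the count relative to all counts of the library scaled to 1e+06, on library sizes scaled with TMM factors. Genes were called differentially expressed (DEGs) in edgeR's quasi-likelihood test at a Benjamini-Hochberg FDR below 0.01 over all 14554 genes. Of the cardiomyocyte markers fixed for the check of identity, 11 of 12 were measured, and their summed level was 41627 to 61456 CPM over the DMSO libraries; fibroblast markers summed to 6520 to 19932 CPM in the same libraries, so the cultures held RNA of both kinds of cell. No marker of any list was at 0 in all libraries of a group. Some libraries stood apart in depth, scaling or marker sums. Library 1 of 5FU at 6 hours had the lowest TMM factor of all (0.859), and library 7 of Dox at 24 hours had the highest total (25738297 counts) and the lowest fibroblast sum of its group (1924 CPM). Library 1 of DMSO1 at 24 hours had the lowest fibroblast sum of its group (9993 CPM, where the others ran from 14952 to 19932 CPM). Calls of members and ratios that lean on library 1 of 5FU or library 7 of Dox are given with and without it. Sums of markers are given over all libraries unless stated.

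**Figure D1:**
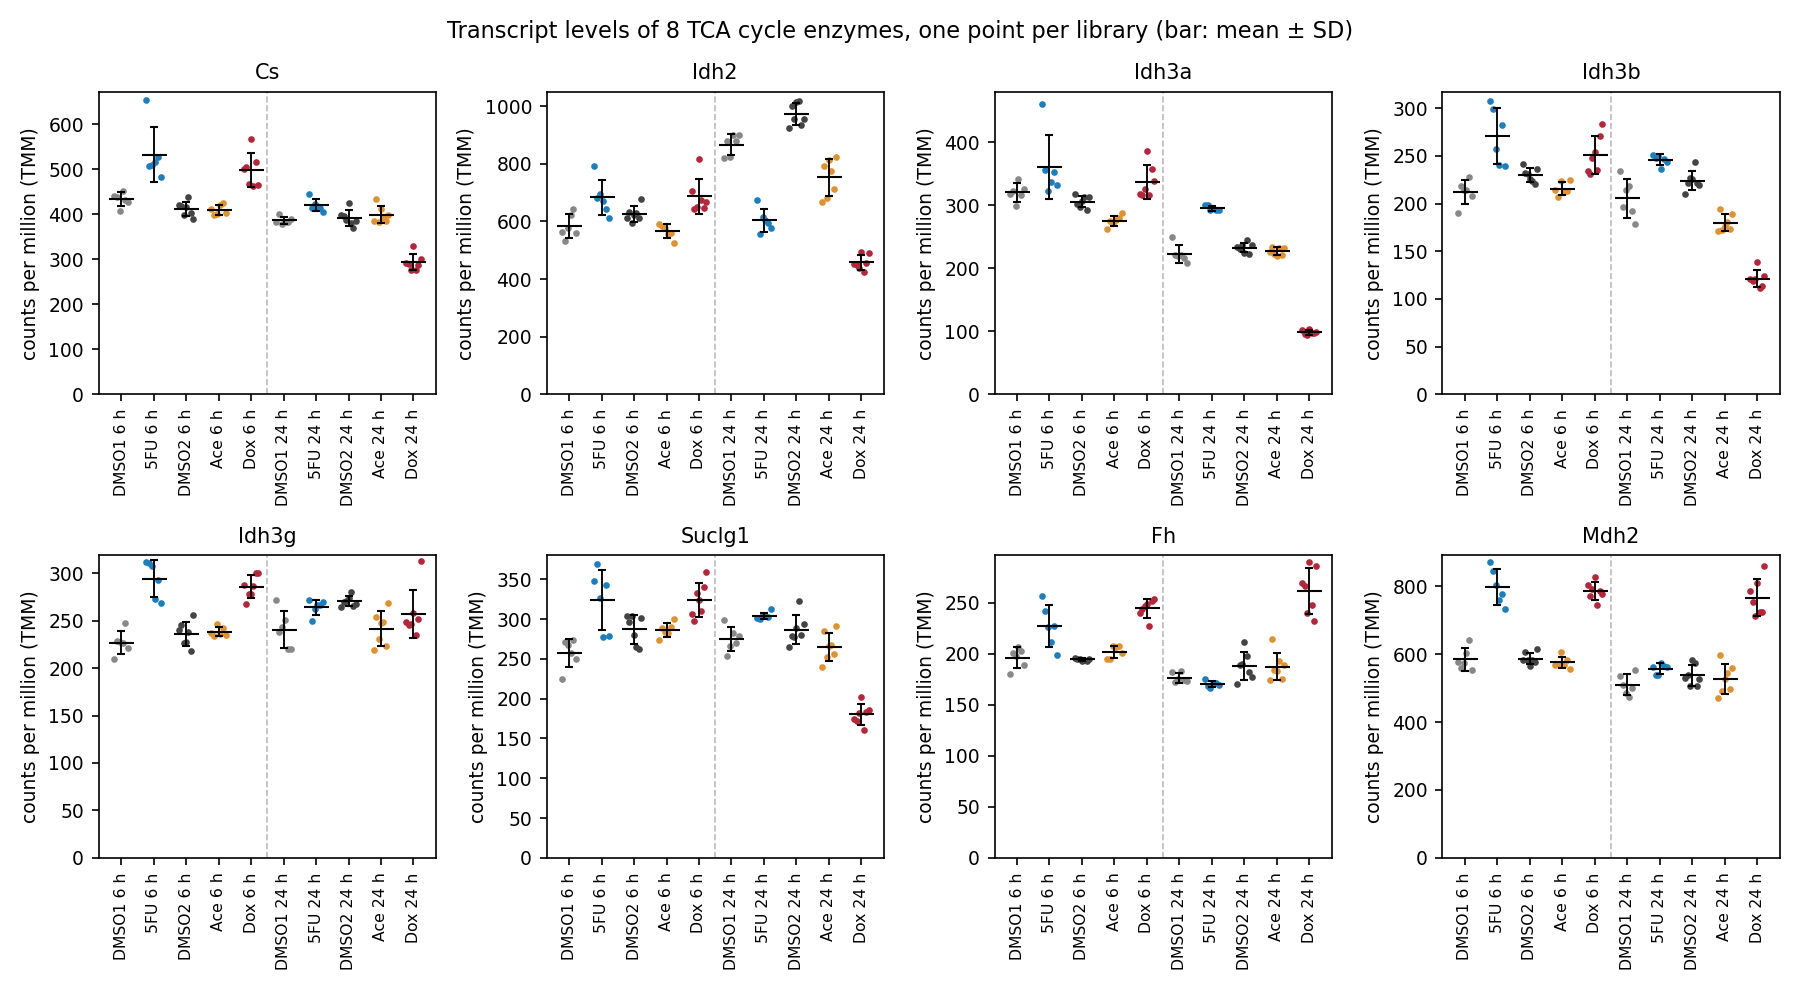
Level of each member in every library (y axis: CPM on TMM-scaled library sizes, from 0; x axis: the 10 groups, 6-hour groups left of the dashed line). Points are libraries and bars are the mean and SD of 6 or 7 libraries; the Dox 24-hour libraries lie lowest for Cs, Idh2, Idh3a, Idh3b and Suclg1, and for Fh they have the highest mean but overlap with Dox and 5FU at 6 hours.

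The largest changes of the members were seen after 24 hours of Dox, and they went in both directions. The 3 genes with the largest falls were Idh3a, Idh2 and Idh3b, all of the isocitrate step, and Suclg1 and Cs fell less. Fh and Mdh2, the genes of the last steps of the cycle, rose. In all, 5 of the 8 members fell, 2 rose and 1 did not pass the test, in a comparison in which 81.4% of all genes were DEGs (40.4% higher and 41% lower), so a share of 7 of 8 is near the background. The median log2 fold change of the members was -0.54, beside 0.003 over all genes. Their summed level was 2281 to 2657 CPM (median 2390) in Dox and 2979 to 3263 CPM (median 3065) in DMSO2.

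Idh3a, the catalytic alpha subunit of the NAD-dependent enzyme, was measured at 93.9, 97.3 and 103 CPM (lowest, median and highest library) in Dox and at 222, 234 and 245 CPM in DMSO2. All 7 treated libraries thus lay below all 7 controls, by a log2 fold change of -1.25 (SE 0.047, FDR 5.62e-34), the largest of any member. Idh3b, which encodes the beta subunit, ran from 112 to 139 CPM (median 121) in Dox and from 210 to 243 CPM (median 222) in DMSO2. The groups did not overlap, and the log2 fold change was -0.89 (SE 0.052, FDR 2.05e-24). Idh3g, the gene of the gamma subunit, lay at 235 to 312 CPM (median 248) in Dox and 265 to 280 CPM (median 270) in DMSO2. Here the groups overlapped and the log2 fold change of -0.07 (SE 0.047, 95% interval -0.17 to 0.02, FDR 0.141) did not pass the test.

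Idh2, the NADP-dependent isocitrate dehydrogenase, was lowered from 924 to 1019 CPM (median 956) in DMSO2 to 426 to 494 CPM (median 453) in Dox. The gap between the highest treated and the lowest control library was wide, and the log2 fold change was -1.09 (SE 0.052, FDR 1.18e-28). Suclg1 ran from 161 to 202 CPM (median 183) in Dox and from 265 to 322 CPM (median 280) in DMSO2, without overlap and with a log2 fold change of -0.67 (SE 0.053, FDR 3.27e-18). Cs, the entry enzyme, ran from 276 to 329 CPM (median 289) in Dox and from 369 to 425 CPM (median 388) in DMSO2. Its fall was the smallest of the 5, at a log2 fold change of -0.42 (SE 0.045, FDR 4.84e-13), and again no treated library reached a control library.

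Fh was measured at 232 to 290 CPM (median 267) in Dox and at 171 to 212 CPM (median 189) in DMSO2. The treated libraries were all above the controls, by a log2 fold change of 0.48 (SE 0.046, FDR 8.15e-15). Mdh2 ran from 712 to 858 CPM (median 753) in Dox and from 505 to 583 CPM (median 529) in DMSO2, with a log2 fold change of 0.51 (SE 0.045, FDR 2.64e-16) and no overlap. Groups without overlap were thus seen for all 7 of the members that were called, 2 above and 5 below, while 33.6% of all genes lay entirely above and 34.6% entirely below their controls. Without library 7 of Dox the number of members called remained 7, with log2 fold changes of -1.22 for Idh3a and 0.51 for Mdh2, and that of Idh3g was -0.10.

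Markers of other cell types and of cardiomyocytes moved in the same libraries. The cardiomyocyte markers summed to 17116 to 24301 CPM in Dox and 41627 to 51994 CPM in DMSO2 at 24 hours, with 9 of 11 markers lower, 0 higher and a median log2 fold change of -1.12. Fibroblast markers summed to 1924 to 4076 CPM against 15134 to 18927 CPM, with all 10 lower, and all 7 endothelial markers were lower (21.0 to 46.3 CPM against 257 to 339 CPM). Of the macrophage markers 7 of 8 were lower and 1 higher (sums of 30.2 to 40.7 CPM against 66.9 to 86.1 CPM), and of the 6 smooth muscle and pericyte markers 4 were lower and 2 higher (244 to 531 CPM against 414 to 521 CPM). The smooth muscle and pericyte sum of 244 CPM was that of library 7 of Dox. The other Dox libraries ran from 480 to 531 CPM. The part of these shifts in the members' changes was not tested. In RNA from whole cultures, fewer cells of a type and less RNA per cell cannot be told apart.

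**Figure D2:**
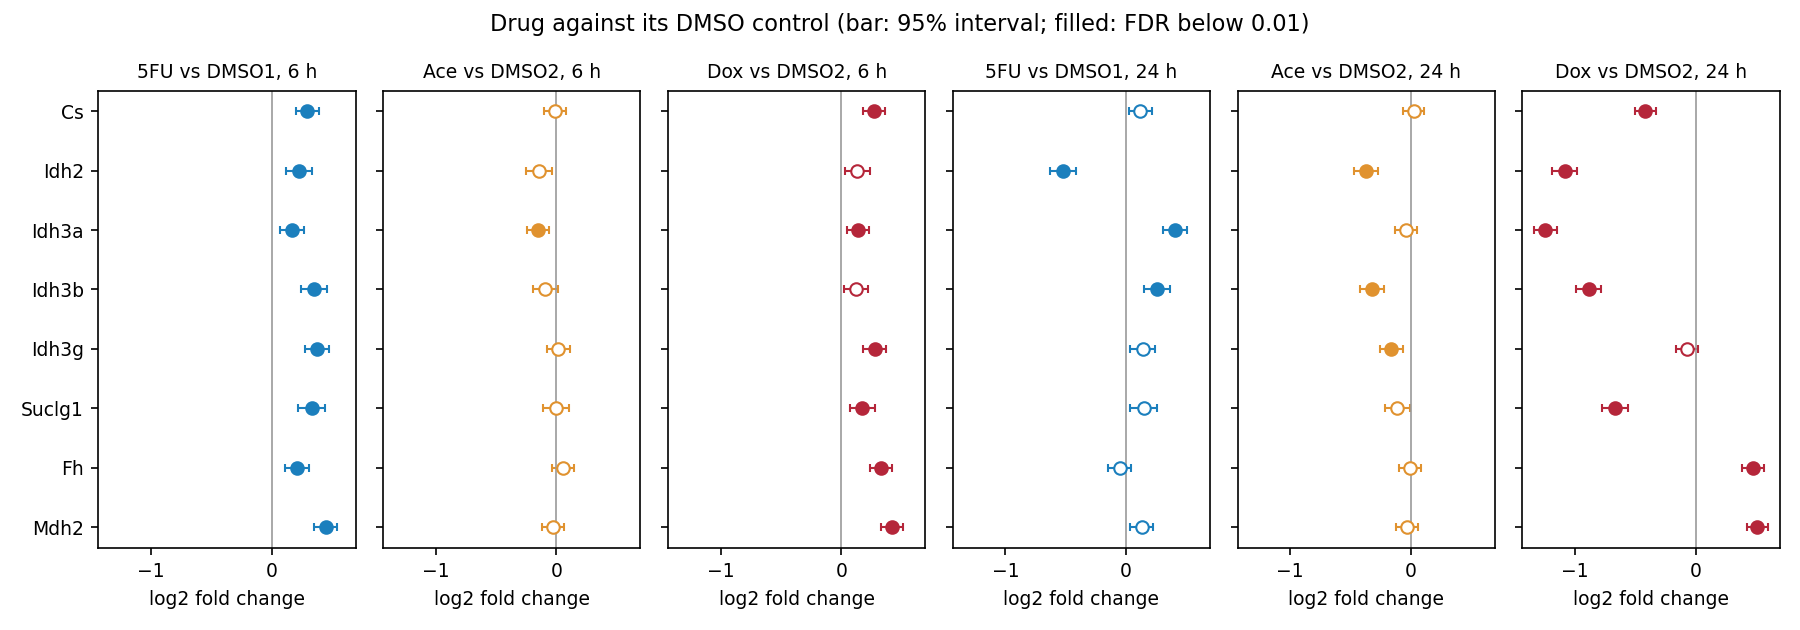
Log2 fold change of each member (x axis) for 5FU against DMSO1 and for Ace and Dox against DMSO2, at 6 and 24 hours (panels), with 95% intervals from edgeR's fit over 65 libraries; filled points have an FDR below 0.01. All points lie right of 0 for 5FU at 6 hours, while for Dox at 24 hours they spread from -1.25 (Idh3a) to 0.51 (Mdh2).

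The 24-hour pattern of Dox differed from that at 6 hours, when most members were higher and none was lower. At 6 hours 6 of the 8 members rose and 0 fell, in a comparison with 64.2% of all genes called, 31.5% higher and 32.7% lower; the median log2 fold change of the members was 0.22 beside 0.003 over all genes. Mdh2 had the largest rise, from 566 to 614 CPM (median 582) in DMSO2 to 746 to 828 CPM (median 785) in Dox, a log2 fold change of 0.42 (SE 0.045, FDR 1.11e-12). Fh followed at 0.33 (SE 0.046, FDR 2.95e-09), with 193 to 196 CPM in DMSO2 and 227 to 254 CPM in Dox. For these genes, and for Cs (0.27) and Idh3g (0.28), all treated libraries were above all controls, as they were for 19.7% of all genes. Suclg1 (0.17) and Idh3a (0.14) were called with overlapping groups, and Idh2 (0.13, FDR 0.0181) and Idh3b (0.12, FDR 0.0254) were not called.

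The number of these 6-hour calls depended on the scaling. With DESeq2's size factors, and with its Wald test, all 8 members were called higher, at a median of 0.26 beside 0.04 over all genes. With library size alone in place of TMM, the median of all genes moved to -0.15, only Mdh2 (0.27) and Fh (0.18) were called, Cs and Idh3g were at 0.12 each, and Idh3a, Idh2 and Idh3b turned to -0.02, -0.02 and -0.03. Idh3a also lost its call in 5 of the 14 fits that left out 1 library (libraries 4 and 6 of Dox, and 2, 3 and 6 of DMSO2), and Suclg1 in that without library 7 of Dox (0.15). The cardiomyocyte markers summed to 44051 to 55736 CPM in Dox and 42446 to 47794 CPM in DMSO2 at 6 hours (7 of 11 higher and 3 lower). In the same comparison all 7 endothelial markers were lower (74.1 to 124 CPM against 218 to 275 CPM in sum), as were 7 of 10 fibroblast markers (7782 to 10205 CPM against 9712 to 14485 CPM), with 0 higher in either list. Of the macrophage markers 3 were higher and 2 lower, and of the smooth muscle and pericyte markers 2 were higher and 3 lower. The part of these lists in the rises was not tested.

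The change of the Dox effect between 6 and 24 hours was tested directly as an interaction. For 6 members the effect at 24 hours was lower than at 6 hours and for 0 it was higher, in a test that called 64.8% of all genes (34% higher and 30.8% lower). The differences were -1.38 (SE 0.066) for Idh3a, -1.22 (SE 0.073) for Idh2 and -1.01 (SE 0.073) for Idh3b on the log2 scale. They were -0.84 for Suclg1, -0.69 for Cs and -0.35 for Idh3g (FDR 5.25e-06). Idh3g had a rise at 6 hours, and its log2 fold change of -0.07 at 24 hours did not pass the test. For Fh the difference was 0.14 (FDR 0.0404) and for Mdh2 0.09 (95% interval -0.03 to 0.22, FDR 0.198), so neither passed the test. That of Fh did without library 3 or 6 of Dox at 24 hours (0.19). With scaling by library size alone 5 members were lower and 2 higher (Fh at 0.35 and Mdh2 at 0.29), Idh3g lost its call (-0.15) and the median of all genes was 0.27, against 0.07 with TMM.

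With 5FU all 8 members were higher at 6 hours, while 23.4% of all genes were called higher and 24.5% lower (47.9% in all). Their median log2 fold change was 0.31 beside -0.002 over all genes, and the values ran from 0.17 (Idh3a) to 0.45 (Mdh2). Mdh2 went from 553 to 643 CPM (median 576) in DMSO1 to 732 to 871 CPM (median 791) in 5FU (SE 0.049, FDR 5.28e-12). Idh3g followed, from 210 to 247 CPM (median 227) to 268 to 312 CPM (median 300), at 0.38 (SE 0.051, FDR 4.51e-09). The groups of these genes and of Cs, Idh3b and Suclg1 did not overlap, 5 members in all, while 13.8% of all genes lay entirely above their controls. Those of Idh2, Idh3a and Fh overlapped.

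Library 1 of 5FU was the highest of its group for Cs, with 653 CPM where the other libraries ran from 483 to 528 CPM, and for Idh3a, with 461 CPM where they ran from 323 to 356 CPM. Without it Cs was at 0.23 and still called, whereas Idh3a fell to 0.08 and was not, which left 7 members called; Idh3a was not called without library 3 of DMSO1 either (0.15). Of the cardiomyocyte markers 2 were higher and 1 lower with 5FU at 6 hours, while 2 of 10 fibroblast and 3 of 7 endothelial markers were lower and 0 higher, and their part was not tested. With library size alone the median of all genes was -0.07 and 5 members were called (Cs, Idh3b, Idh3g, Suclg1 and Mdh2), all higher. The share of DEGs that were higher moved with that scaling from 48.9% to 36.8% for 5FU and from 49.1% to 33.8% for Dox at 6 hours, and from 48.8% to 61.4% for Ace at 24 hours.

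After 24 hours of 5FU 2 members were higher, 1 was lower and 5 did not pass the test, with 55.8% of all genes called (28% higher and 27.8% lower). Idh2 fell from 820 to 900 CPM (median 878) in DMSO1 to 558 to 674 CPM (median 598), a log2 fold change of -0.52 (SE 0.056, FDR 2.35e-12). Idh3a rose from 209 to 250 CPM (median 220) to 292 to 300.4 CPM (median 294), a log2 fold change of 0.41 (SE 0.050, FDR 1.69e-10). Neither pair of groups overlapped, and Idh2 of the NADP route and Idh3a of the NAD route moved in opposite directions in the same libraries. Idh3b was also higher, at 0.26 (SE 0.055, FDR 4.21e-05), from 178 to 234 CPM (median 206) to 236 to 251 CPM (median 248). Groups without overlap were seen for 5 members, 4 above (Idh3a, Idh3b, Cs and Suclg1) and 1 below, and for 22.3% and 20.6% of all genes.

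The other 5 members had log2 fold changes of 0.14 (Suclg1 and Idh3g), 0.13 (Mdh2), 0.12 (Cs) and -0.05 (Fh), with FDRs of 0.0166 to 0.348. Apart from Fh, with the FDR of 0.348, they were close to the threshold: the number of members called was 7 at an FDR below 0.1 (6 higher and 1 lower), 5 with edgeR's filter filterByExpr, and 3 to 5 when single libraries were left out, 5 without library 2 of 5FU (Idh3g at 0.17 and Mdh2 at 0.15) or without library 1 of DMSO1 (Idh3g and Suclg1 at 0.17). The effect of 5FU was lower at 24 than at 6 hours for Idh2 (-0.75, SE 0.079, FDR 5.66e-12), Mdh2 (-0.32), Fh (-0.26) and Idh3g (-0.24) and higher for Idh3a (0.24, FDR 0.00378), in a test that called 39.5% of all genes (20.3% higher and 19.2% lower). Idh3a lost that call without library 3 or 4 of 5FU at 6 hours (0.21), and Idh3g without library 2 of 5FU (-0.22) or library 1 of DMSO1 (-0.20) at 24 hours. With library size alone the test called 3 members, 1 higher and 2 lower. In that setting it called 5654 of all genes, 60.8% of them higher. At 24 hours the cardiomyocyte markers summed to 32255 to 34537 CPM in 5FU and 43243 to 46542 CPM in DMSO1 (5 of 11 lower, 1 higher), and the fibroblast markers to 5183 to 5853 CPM and 9993 to 19932 CPM (all 10 lower). Their part in the members' changes was not tested.

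With Ace at 6 hours 1 member was called, Idh3a, with 263 to 288 CPM (median 276) in Ace and 293 to 317 CPM (median 307) in DMSO2, a log2 fold change of -0.15 (SE 0.048, FDR 0.0081), where 31.7% of all genes were called and 15.2% lower. The call was lost in 11 of the 13 fits without 1 library, in which the value ran from -0.16 to -0.13. For Idh3a and for Idh2 (-0.14, FDR 0.025) all Ace libraries lay below all controls, as they did for 12.1% of all genes. The other members lay between -0.09 (Idh3b) and 0.05 (Fh). Of the fibroblast markers 7 of 10 were lower (7353 to 10975 CPM against 9712 to 14485 CPM in sum), and their part was not tested.

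At 24 hours 3 members were lower with Ace and 0 higher, while 37.2% of all genes were called, 18.2% higher and 19.1% lower. Idh2 fell from 924 to 1019 CPM (median 956) in DMSO2 to 668 to 822 CPM (median 776) in Ace, a log2 fold change of -0.37 (SE 0.052, FDR 1.42e-08). Idh3b fell from 210 to 243 CPM (median 222) to 171 to 194 CPM (median 177), a log2 fold change of -0.32 (SE 0.051, FDR 3.95e-07). The groups of both genes did not overlap, while 13.7% of all genes lay entirely below their controls. Idh3g was at -0.16 (SE 0.047, FDR 0.00347) with overlapping groups, and it was not called without library 1, 3 or 6 of Ace (-0.13 to -0.14). Idh3a, lower at 6 hours, was at -0.04 (95% interval -0.13 to 0.05), which spans 0. The difference between the Ace effects at the 2 times was called by edgeR for 0 members (11.6% of all genes), was below an unadjusted p of 0.05 for 3 (Idh2, Idh3b and Idh3g) and was called by DESeq2's Wald test for 0. The fibroblast markers were all lower in Ace at 24 hours (7268 to 9293 CPM against 15134 to 18927 CPM), and the cardiomyocyte sum was 42294 to 55986 CPM; the part of either was not tested.

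The drugs were also set against each other. Dox and Ace share the DMSO2 controls and were therefore compared directly: at 6 hours all 8 members were higher in Dox (62.1% of all genes called, 30.6% higher and 31.4% lower), from 0.18 (Suclg1) to 0.45 (Mdh2), and 5 were called with library size alone. Suclg1 lost this call without library 7 of Dox (0.15) or library 3 of Ace (0.16). With library size alone 8783 of all genes were called in that comparison, 36.7% of them higher. At 24 hours 5 were lower in Dox, with Idh3a at -1.21 (SE 0.047) and Idh2 at -0.72 (SE 0.052), and Fh (0.48) and Mdh2 (0.54) were higher and Idh3g (0.09, FDR 0.0778) was not called, where 80.6% of all genes were called (40.7% higher and 39.9% lower). With DESeq2's size factors and with its Wald test, 3 members were called higher and 5 lower at 24 hours. Of all genes 11704 and 11727 were called there. Dox and 5FU have separate controls, so their effects were compared by subtraction. At 24 hours all 8 differed (71.1% of all genes did, 35.8% higher and 35.4% lower): the Dox effect was lower by 1.65 for Idh3a (log2 difference -1.65, SE 0.069) and higher by 0.53 for Fh and 0.38 for Mdh2. The smallest of these, -0.21 for Idh3g, was not called in 14 of the 26 fits without 1 library. With DESeq2's size factors, its Wald test, library size alone or filterByExpr, 2 members were called higher and 5 lower. In these settings 10308 to 10487 of all genes were called. At 6 hours 1 member differed, Idh3b (-0.23, FDR 0.00756, with 45.9% of all genes called and 24% lower), and it did not without library 1 of 5FU (-0.18) or in 10 other such fits.

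The members also moved with time in the DMSO controls, and not together. From 6 to 24 hours in the controls Idh2 rose by 0.60 on the log2 scale (SE 0.038, FDR 4.76e-22) and Idh3g by 0.14, while Idh3a (-0.46, SE 0.034, FDR 6.73e-19), Mdh2 (-0.16), Cs (-0.12) and Fh (-0.10) fell, in a test that called 64.6% of all genes (32.7% higher and 31.9% lower). Idh2 ran from 532 to 644 CPM in DMSO1 and 595 to 678 CPM in DMSO2 at 6 hours, and from 820 to 900 CPM and 924 to 1019 CPM at 24 hours. Idh3a ran from 298 to 342 CPM and 293 to 317 CPM at 6 hours and from 209 to 250 CPM and 222 to 245 CPM at 24 hours. In both control series the 2 times did not overlap for either gene. The call of Fh was lost in 10 of 26 fits without 1 library. Over the same time 9 of 10 fibroblast markers and 6 of 8 macrophage markers were higher and 0 lower, and 4 of 7 endothelial markers were higher and 2 lower. The fibroblast sum went from 6520 to 10939 CPM to 9993 to 19932 CPM in DMSO1 and from 9712 to 14485 CPM to 15134 to 18927 CPM in DMSO2, and the part of these lists was not tested. Whether the 6-hour and 24-hour plates were extracted together is not stated in the sources used here, and time cannot be told apart from such a difference.

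Between DMSO1 and DMSO2 no member was called, with edgeR, at 6 hours (16.5% of all genes called) or 24 hours (0.433%). The largest differences were -0.16 for Suclg1 at 6 hours (FDR 0.024) and -0.17 for Idh2 and for Idh3g at 24 hours (FDR 0.0751 and 0.0451). At an unadjusted p below 0.05 there were 2 members (Idh3b and Suclg1) and 3 members (Idh2, Idh3b and Idh3g), and DESeq2's Wald test called 0 at either time. For Idh2 all DMSO1 libraries lay below all DMSO2 libraries at 24 hours, as they did for 1.18% of all genes. With library size alone 3 members were called lower in DMSO1 at 6 hours. In that setting 2443 of all genes were called, 29.6% of them higher, and the median log2 fold change of all genes was -0.07.

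A ratio of 2 members within a library does not depend on how libraries are scaled against each other, and 5 such ratios were tested in each of the 6 drug comparisons by a two-sided exact permutation test, with p-values adjusted over the 30 tests. Among the subunits of the NAD-dependent isocitrate dehydrogenase, the log2 ratio of Idh3a to Idh3g was -1.67 to -1.27 in Dox at 24 hours and -0.29 to -0.18 in DMSO2. The 7 treated libraries were all below the 7 controls, by 1.17 (difference -1.17, SE 0.053, exact p = 0.000583, the smallest this design allows, adjusted p = 0.0025). The ratio of Idh3b to Idh3g was lower by 0.81 (difference -0.81, SE 0.054) and that of Idh3a to Idh3b by 0.36 (difference -0.36, SE 0.038), both without overlap and at the same exact p. Without library 7 of Dox the differences were -1.12 (Idh3a/Idh3g), -0.77 (Idh3b/Idh3g) and -0.35 (Idh3a/Idh3b). The transcripts of the 3 subunits were thus present in other proportions than in the controls, with Idh3a lowest relative to its partners. In this comparison 33.6% of all genes lay entirely above and 34.6% entirely below their controls. The share of other gene pairs with such a shift was not determined for this or any other ratio. Whether the shifts are particular to these genes was therefore not tested.

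**Figure D3:**
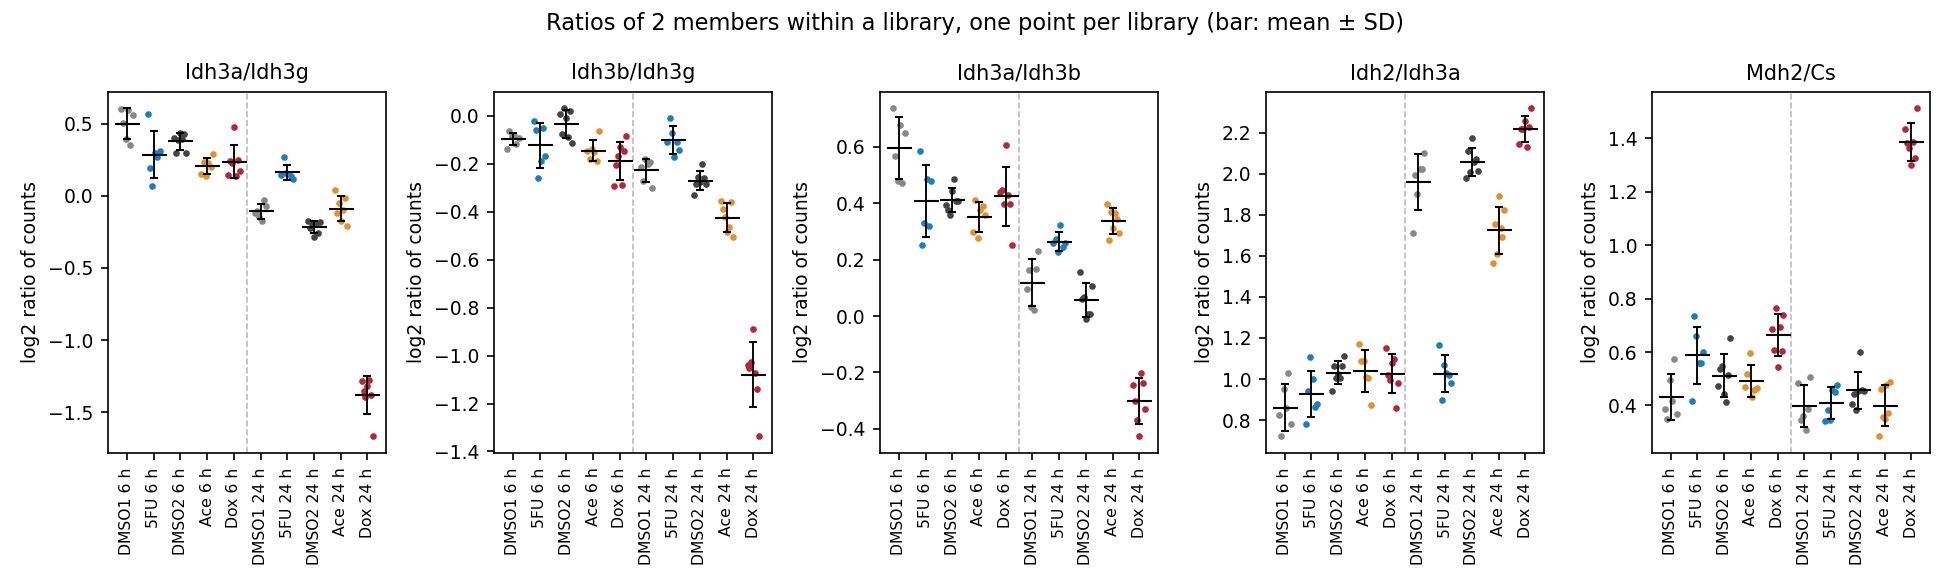
Log2 ratio of the counts of 2 members within each library (y axis) in the 10 groups (x axis), with 6-hour groups left of the dashed line; bars are the mean and SD of 6 or 7 libraries. The Dox 24-hour libraries stand below all others for the 3 Idh3 ratios and above all others for Mdh2/Cs, and the 5FU 24-hour libraries lie at the 6-hour level of Idh2/Idh3a.

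Smaller shifts of these proportions were called in other comparisons, some in the same sense and some in the opposite one. At 6 hours Idh3a/Idh3g was lower with Ace (difference -0.17, SE 0.032, exact p = 0.00175, adjusted p = 0.00538, no overlap) and Idh3b/Idh3g lower with Dox (difference -0.16, SE 0.037, exact p = 0.00175, adjusted p = 0.00538, overlapping groups). With 5FU at 24 hours Idh3a/Idh3g was 0.27 higher (SE 0.031, exact p = 0.00216, the smallest for 6 against 6, adjusted p = 0.00538). Idh3b/Idh3g was 0.12 higher (SE 0.031) at the same exact p, and neither pair of groups overlapped. Idh3a/Idh3b was 0.15 higher (SE 0.036, exact p = 0.00433, adjusted p = 0.00928) with overlapping groups. That last call was lost in several fits without 1 library of 5FU, as given below. With Ace at 24 hours Idh3a/Idh3b was 0.28 higher and Idh3b/Idh3g 0.15 lower (difference -0.15), both at an exact p = 0.000583 and without overlap.

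Idh2/Idh3a sets the gene of the NADP enzyme against that of the alpha subunit of the NAD enzyme. This ratio increased between 6 and 24 hours in DMSO1 and DMSO2 and was lower in 5FU than in DMSO1 at 24 hours. Its log2 value was 0.72 to 1.03 in DMSO1 at 6 hours, 1.71 to 2.10 in DMSO1 at 24 hours and 0.90 to 1.17 in 5FU at 24 hours. The 24-hour difference was -0.93 (SE 0.067, exact p = 0.00216, adjusted p = 0.00538), with all 6 treated libraries below the controls. With Ace it was -0.33 (SE 0.050, exact p = 0.000583) and with Dox 0.16 (SE 0.035, exact p = 0.00233, overlapping groups), both genes having fallen there. At 6 hours none of the 3 differences, from -0.01 to 0.07, passed the test (exact p = 0.327 to 0.9). With Dox at 24 hours the sign depended on the subunit chosen. Idh2 (log2 fold change -1.09) fell less than Idh3a (-1.25) but more than Idh3b (-0.89), and Idh3g (-0.07) was not called. Ratios of Idh2 to Idh3b and to Idh3g were not tested.

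Mdh2/Cs compares the last enzyme of the cycle, which makes oxaloacetate, with the first, which uses it. Its log2 value was 1.30 to 1.51 in Dox at 24 hours and 0.38 to 0.60 in DMSO2, a difference of 0.93 (SE 0.037, exact p = 0.000583, adjusted p = 0.0025) and larger than in any other comparison. The other differences ran from -0.06 to 0.16 with adjusted p-values of 0.0113 to 0.876.

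Over the 10 groups Idh3a varied most, with a mean of 360 CPM in 5FU at 6 hours and 98.3 CPM in Dox at 24 hours, a ratio of 3.67. Idh3g varied least, from 227 CPM in DMSO1 to 294 CPM in 5FU at 6 hours, a ratio of 1.30. In the order of the group means, Dox at 24 hours was the lowest group for Cs, Idh2, Idh3a, Idh3b and Suclg1 and stood clear of its neighbour in each; 5FU at 6 hours was highest for Cs, Idh3a, Idh3b, Idh3g and Mdh2, but overlapped with Dox at 6 hours in each. Most neighbours between these ends overlapped, as for Cs, where the 7 groups from DMSO1 at 6 hours (433 CPM) down to DMSO1 at 24 hours (386 CPM) each overlapped with the next. Idh2 was highest in DMSO2 at 24 hours (972 ± 39.0 CPM, SD, n = 7), apart from DMSO1 at 24 hours (866 ± 36.1 CPM, SD, n = 6), which overlapped with Ace at 24 hours (752 ± 64.2 CPM, SD, n = 7). Fh was highest in Dox at 24 hours (262 ± 22.5 CPM) and next in Dox at 6 hours (245 ± 9.12 CPM), which overlapped.

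The group means show which members shared a pattern, as a description over 10 groups that share controls and time points. Idh3b and Suclg1 were most alike (Pearson r = 0.97), followed by Idh3a with Idh3b (0.95), and Fh with Mdh2 (0.91); Idh2 and Fh went most against each other (-0.50). Outside the members, the 5 genes closest to the mean member profile among 10501 with a mean count of at least 100 included Laptm4a (r = 0.95), Cox5a (0.94), Atp5mc2 (0.94) and Ndufs1 (0.93). Cox5a, Atp5mc2 and Ndufs1 encode subunits of the respiratory chain and ATP synthase, and Laptm4a encodes a lysosomal membrane protein. The mean profile did not stand for every member. Its correlation was 0.15 with Fh, 0.35 with Idh2 and 0.43 with Mdh2, and from 0.71 (Idh3g) to 0.92 (Cs) with the others.

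A list of 9 other enzymes and subunits of the cycle, all measured, moved much as the members did, apart from the absence of a rise at 24 hours of Dox. At 6 hours 8 were higher with 5FU (median log2 fold change 0.25) and 7 with Dox (0.23), and none was lower. Among all genes 23.4% were higher with 5FU and 31.5% with Dox. With Ace at 6 hours the lowest FDR was 0.0263 (Dlst). At 24 hours of Dox 7 were lower and 0 higher, with a median of -0.73 beside 0.003 over all genes. In that comparison 81.4% of all genes were called, 40.4% higher and 41% lower, so 7 called of 9 is near the background. The 4 subunits of succinate dehydrogenase, the cycle enzyme of the inner membrane, were all lower: Sdhc at -0.79 (SE 0.045, FDR 6.47e-25), Sdhd at -0.78, Sdha at -0.74 and Sdhb at -0.26. Sdhc ran from 159 to 193 CPM in Dox and 289 to 334 CPM in DMSO2, without overlap.

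Dlst, the E2 core of the oxoglutarate dehydrogenase complex, was at -0.78 (SE 0.041, FDR 1.43e-26) and Mrps36, a small subunit that joins E3 to that complex, at -0.73 (SE 0.074). Dld, the E3 subunit shared with pyruvate dehydrogenase, was at -0.24. Suclg2 (0.07, FDR 0.149) and Sucla2 (-0.08, FDR 0.261), the beta subunits that pair with Suclg1, did not pass the test, although Suclg1 fell by 0.67 on the log2 scale. Among these 17 genes of the cycle, then, 2 rose with Dox at 24 hours (Fh and Mdh2) and 12 fell. Of all genes 40.4% rose and 41% fell, so the share called is near the background. The interaction with time called all 9 of the other genes lower at 24 than at 6 hours, from -0.24 (Suclg2) to -1.04 (Sdhd). That test called 30.8% of all genes lower and 34% higher.

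**Figure D4:**
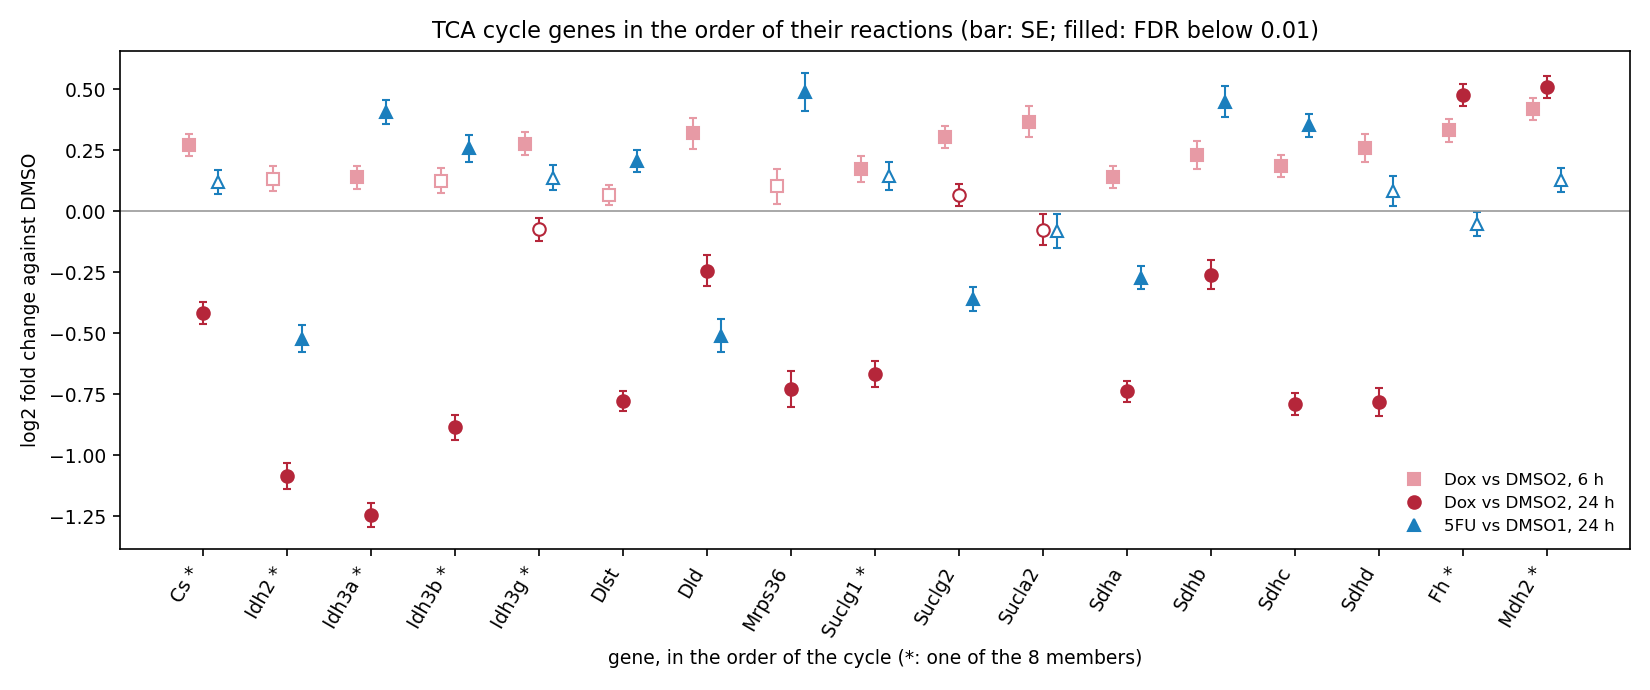
Log2 fold change against DMSO (y axis, with SE) of the 8 members (asterisks) and the 9 other cycle genes in the order of their reactions (x axis), for Dox at 6 hours (squares), Dox at 24 hours (circles) and 5FU at 24 hours (triangles); filled points have an FDR below 0.01. The circles lie below the squares for every gene up to Sdhd, and at 0.48 and 0.51 for Fh and Mdh2.

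With 5FU at 24 hours the other cycle genes split as the members did, 4 higher and 3 lower, beside 28% and 27.8% of all genes. Mrps36 (0.49, SE 0.078), Sdhb (0.45, SE 0.063), Sdhc (0.35) and Dlst (0.21) were higher, and Dld (-0.51, SE 0.069), Suclg2 (-0.36) and Sdha (-0.27) lower. Subunits of succinate dehydrogenase thus moved in opposite directions: Sdhb ran from 320 to 341 CPM in 5FU and 221 to 290 CPM in DMSO1, and Sdha from 511 to 581 CPM and 631 to 674 CPM, both without overlap. With Ace at 24 hours 4 were lower (Sdha at -0.22, Sucla2 at -0.19, Sdhc at -0.16 and Dlst at -0.13) and 0 higher. Of all genes 19.1% were lower and 18.2% higher with Ace.

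Genes of pyruvate entry, which feed acetyl-CoA to Cs, went in both directions. Of the 13 genes of pyruvate entry 6 were higher and 6 lower at 24 hours of Dox (median log2 fold change 0.04), beside 40.4% and 41% of all genes. Pdp2, a phosphatase that activates pyruvate dehydrogenase, had the largest rise of the list (2.93, SE 0.098, FDR 7.23e-37), from 7.71 to 9.32 CPM in DMSO2 to 43.1 to 78.2 CPM in Dox. Pdk2, a kinase that inhibits the complex, had the largest fall (-1.78, SE 0.076, FDR 3.05e-31), from 135 to 153 CPM to 34.2 to 49.3 CPM. Among the subunits of the complex itself, Dlat, its E2 core, was at -1.56 (SE 0.059), Pdha1 at -0.34 and Pdhx at -0.33, whereas Pdhb was at 0.37. At 6 hours 6 were higher and 1 lower with 5FU, and 8 higher and 2 lower with Dox; with Ace 1 was lower at 6 hours, and 3 were higher and 2 lower at 24 hours. With 5FU at 24 hours 5 were higher and 3 lower. The shares of all genes called in each of these comparisons are those given above with the members. Of the 5 relatives of Ogdh and its complex, Dhtkd1, the E1 subunit of the 2-oxoadipate dehydrogenase complex, fell by 3.15 on the log2 scale (SE 0.189, FDR 7.96e-24) with Dox at 24 hours, from 5.70 to 8.84 CPM to 0.375 to 1.33 CPM. Ogdhl, a paralog of Ogdh, was at -1.57 (SE 0.101), so 3 of the 5 fell and 1 rose in that comparison, where 81.4% of all genes were called. Dbt, the E2 subunit of the branched-chain complex, had the largest rise of this list among the 6 comparisons of a drug with its control, 0.41 with 5FU at 24 hours (SE 0.060).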

How the data were processed

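RNA of 65 libraries was pseudo-aligned by the authors with kallisto 0.46.0 (per the submitters' processing notes), and the deposited estimated counts had been summed to 14554 Entrez genes after removal of genes with low counts; the values used here were whole numbers. Kallisto shares reads among near-identical transcripts, so paralogs may exchange counts. Columns carried the group but no replicate number, and libraries were numbered within a group by column order as names only. Gene symbols were matched to 14009 IDs.

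All libraries were fitted together in edgeR 4.0.16 (TMM, quasi-likelihood test, R 4.3.3), and p-values were adjusted by Benjamini-Hochberg over all genes at an FDR below 0.01. SEs are the absolute log2 fold change divided by the square root of F, and 95% intervals are 1.96 SE to either side. Ratios used a two-sided exact permutation test over 5 of the 6 planned pairs, the pair with Ogdh being left out. Alternatives were DESeq2 1.42.0 (size factors, Wald test), library size only, compared groups only, a stricter filter, an FDR below 0.1 and leaving out each library. No 2 libraries of a group agreed within sampling noise (180 pairs). The procedure was tested on simulated data. All members found were named, with lists of related genes and genes from the 5 most like the mean member profile; some related genes are not reported here. Members and lists were chosen with earlier results of these data known. Columns of the authors' own comparisons were not used.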

Additional observations from a re-analysis of the deposited data

Results flagged for a closer look

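Over the 80 combinations of member and group, 5 had a library far from the rest of its group, where chance alone marks about 1 in 20. Library 1 of 5FU at 6 hours was high for Cs (653 CPM) and Idh3a (461 CPM). Idh2 was high in library 4 of Dox at 6 hours (815 CPM), Idh3a in library 1 of DMSO1 at 24 hours (249.9 CPM), and Idh3g in library 7 of Dox at 24 hours (312 CPM).

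The effect of a drug differed between 24 and 6 hours, by edgeR's test of the difference itself, for 5 members with 5FU and 6 with Dox, beside 39.5% and 64.8% of all genes; with library size only 3 members were called with 5FU. With 5FU the differences were -0.75 for Idh2, -0.32 for Mdh2, -0.26 for Fh, -0.24 for Idh3g and 0.24 for Idh3a on the log2 scale. With Dox they were -1.38 for Idh3a, -1.22 for Idh2, -1.01 for Idh3b, -0.84 for Suclg1, -0.69 for Cs and -0.35 for Idh3g.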

How the results depend on the processing

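No paired analysis was possible because the columns of the count table carry no replicate numbers. With Dox at 24 hours 7 members were called in each alternative and each fit without 1 library. With library size only, the members called were 5 (5FU, 6 hours), 2 (Ace, 6 hours), 2 (Dox, 6 hours), 3 (DMSO1 against DMSO2, 6 hours), 3 (5FU, 24 minus 6 hours), 1 (Ace, 24 minus 6 hours), 2 (Dox minus 5FU, 6 hours) and 5 (Dox against Ace, 6 hours). In the same order, 6736, 4414, 9062, 2443, 5654, 1819, 6621 and 8783 of all genes were called. With TMM these numbers were 6971, 4619, 9349, 2397, 5755, 1694, 6684 and 9034. In a fit of the compared groups only they were 5 (5FU, 6 hours), 2 (Ace, 6 hours), 3 (5FU, 24 minus 6 hours), 2 (Ace, 24 minus 6 hours) and 0 (Dox minus 5FU, 6 hours). DESeq2 called 0 for Dox minus 5FU at 6 hours, with its size factors in edgeR as with its Wald test, where edgeR called 1 and 2 had an unadjusted p below 0.05. Of all genes 6711 were called there with the size factors and 6854 with the Wald test. With filterByExpr the members called were 0 (Ace, 6 hours) and 5 (5FU, 24 hours). Of all genes 4655 and 8116 were called there, against 4619 and 8117 with the main filter. At an FDR below 0.1 the members called were 2 (Ace, 6 hours), 7 (5FU, 24 hours), 2 (DMSO1 against DMSO2, either time), 3 (Ace, 24 minus 6 hours) and 2 (Dox minus 5FU, 6 hours). At that threshold 10090 of all genes were called for 5FU at 24 hours and 8867 for Dox minus 5FU at 6 hours. Among all genes the DEGs between DMSO1 and DMSO2 at 24 hours went from 63 to 181 (DESeq2's Wald test), 17 (compared groups only) and 764 (FDR below 0.1), and at 6 hours from 2397 to 1588 (compared groups only) and 4751 (FDR below 0.1). Those of Ace at 24 minus 6 hours went from 1694 to 2697 and 3867 in the same settings, and those of Ace at 6 hours from 4619 to 7120 (FDR below 0.1). The cause of these shifts was not tested.

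With library size only the sign turned, to log2 values near 0, with Dox at 6 hours for Idh2 (-0.021), Idh3a (-0.016) and Idh3b (-0.029), for Idh3g, Ace vs DMSO2, 6 h (-0.014), and with Ace at 24 hours for Idh3a (0.018), Fh (0.051) and Mdh2 (0.025). It also turned for the Ace effect at 24 minus 6 hours in Fh (0.028) and Mdh2 (0.085), and between DMSO1 and DMSO2 for Cs (-0.011), Idh3a (-0.018) and Fh (-0.068) at 6 hours and Cs (0.026) at 24 hours. With filterByExpr it turned with Ace for Cs (0.0044) and Suclg1 (0.0060) at 6 hours and for Fh, Ace vs DMSO2, 24 h (0.00042). Of these only Idh3a with Dox at 6 hours had been called. The share of DEGs that were higher moved with library size only from 47.9% to 77.1% (Ace, 24 minus 6 hours), from 52.5% to 64.8% (Dox, 24 minus 6 hours), from 49.4% to 36.7% (Dox against Ace, 6 hours), and between DMSO1 and DMSO2 from 59.9% to 29.6% at 6 hours and from 31.7% to 80.7% at 24 hours.

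Without 1 library the members called ran from 3 to 5 (5FU, 24 hours), 0 to 1 (Ace, 6 hours) and 0 to 1 (Dox minus 5FU, 6 hours). The Dox minus 5FU difference at 6 hours ran from -0.055 to 0.047 for Cs, -0.063 to 0.057 for Idh3a and -0.055 to 0.0050 for Mdh2, turning without library 1 of 5FU. With Ace the values ran from -0.034 to 0.024 (Fh, 24 hours), -0.057 to 0.0020 (Mdh2, 24 hours), -0.040 to 0.018 (Mdh2, 24 minus 6 hours), -0.021 to 0.0080 (Cs, 6 hours) and -0.025 to 0.017 (Suclg1, 6 hours). Between DMSO1 and DMSO2 they ran from -0.034 to 0.00091 (Cs, 24 hours), -0.0021 to 0.039 (Fh, 6 hours) and -0.034 to 0.013 (Mdh2, 6 hours), and the DEGs among all genes at 24 hours from 10 (without library 1 of DMSO1) to 162 (without library 4), against 63 with all. Log2 ratios with 5FU ran from 0.126 to 0.167 (Idh3a/Idh3b, 24 hours, not called without library 1, 2, 4, 5 or 6 of 5FU), -0.0073 to 0.033 (Mdh2/Cs, 24 hours) and -0.27 to -0.17 (Idh3a/Idh3g, 6 hours, called without library 1 of 5FU). With Ace they ran from 0.104 to 0.146 (Idh3a/Idh3g, 24 hours, called without library 4 or 7 of Ace), -0.13 to -0.10 (Idh3b/Idh3g, 6 hours), -0.019 to 0.041 (Idh2/Idh3a, 6 hours) and -0.043 to 0.0027 (Mdh2/Cs, 6 hours). With Dox at 6 hours they ran from -0.016 to 0.043 (Idh3a/Idh3b), -0.18 to -0.13 (Idh3a/Idh3g), -0.027 to 0.022 (Idh2/Idh3a) and 0.13 to 0.18 (Mdh2/Cs). Leaving out a library also raises the smallest exact p that the permutation test allows. A ratio can therefore lose its call without a change in its size. Library totals were 14332827 counts or more and no member had under 1557 counts in a library. Levels of protein and enzyme activity were not analysed here.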

Other observations

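Genes that feed carbon into the cycle or draw it out changed in both directions with Dox at 24 hours. Of the 11 measured genes of this list 5 were higher and 4 lower (median log2 fold change -0.05 beside 0.003 over all genes, of which 40.4% were higher and 41% lower). Pc, pyruvate carboxylase, which makes oxaloacetate from pyruvate, rose from 14.5 to 21.6 CPM in DMSO2 to 52.2 to 67.7 CPM in Dox (log2 fold change 1.81, SE 0.114), and Glud1, glutamate dehydrogenase, from 149 to 173 CPM to 374 to 492 CPM (1.49, SE 0.045). Aldh5a1, which makes succinate in the breakdown of GABA, fell furthest of the 4 (-1.35, SE 0.063, FDR 1.73e-29). With Ace at 24 hours 4 were higher and 2 lower, with Pc at 1.03 (SE 0.114), and with 5FU at 24 hours 1 was higher and 2 lower. At 6 hours 7 were higher and 1 lower with Dox, 3 higher and 0 lower with Ace, and 3 higher and 0 lower with 5FU.

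The cytosolic counterparts, 6 of 7 measured, were split with Dox at 24 hours, when 3 were higher and 3 lower, beside 40.4% and 41% of all genes. Mdh1, the cytosolic malate dehydrogenase, fell from 773 to 934 CPM in DMSO2 to 285 to 384 CPM in Dox (-1.32, SE 0.076, FDR 8.41e-25), where Mdh2 rose by 0.51 on the log2 scale. Idh1, the cytosolic NADP-dependent isocitrate dehydrogenase, rose by 0.65 (SE 0.050), where Idh2 was at -1.09. Acly, which splits exported citrate into acetyl-CoA and oxaloacetate, rose from 124 to 143 CPM to 478 to 645 CPM (1.99, SE 0.055, FDR 1.64e-41). With 5FU at 24 hours Idh1 was at 0.59 (SE 0.054) and Idh2 at -0.52. Of these 6 genes 4 were higher and 1 lower with 5FU and 3 higher and 1 lower with Ace at 24 hours, and 1 higher and 2 lower (5FU), 2 higher and 0 lower (Ace) and 1 higher and 1 lower (Dox) at 6 hours.

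Of the 7 carriers of cycle intermediates 2 were higher and 4 lower with Dox at 24 hours, beside 40.4% and 41% of all genes. Slc25a12, a mitochondrial aspartate and glutamate carrier, fell from 111 to 124 CPM in DMSO2 to 13.4 to 17.3 CPM in Dox (-2.97, SE 0.045, FDR 1.4e-55), and rose with 5FU at 24 hours (0.64, SE 0.043). Slc25a21, the 2-oxodicarboxylate carrier, was low in DMSO2 (2.02 ± 0.476 CPM, SD, n = 7) and lower in Dox (0.183 ± 0.0837 CPM, SD, n = 7). Slc13a5, a citrate transporter of the plasma membrane, was at 1.49 ± 0.538 CPM in Dox and 0.0950 ± 0.0968 CPM in DMSO2, with some control libraries at 0. With 5FU 1 carrier was higher and 2 lower and with Ace 2 were higher and 1 lower at 24 hours, and at 6 hours the counts were 2 and 1 (5FU), 0 and 2 (Ace) and 1 and 1 (Dox). For the lists of this section, the shares of all genes called in the same comparisons are given above with the members. For Ace at 6 hours, where 31.7% of all genes were called, 52.0% of those calls were higher.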
